A study of Homo sapiens with 6 samples.

Results

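The end of the short arm of human chromosome 5, band 5p15, holds *TERT*, the gene of the reverse transcriptase subunit of telomerase, among many other genes. The genes described here were chosen by position and level: those of chromosome 5 that start before 8.5 Mb in GRCh38 and had a mean normalized value of at least 10 over 6 libraries, leaving out *SDHA*, *NDUFS6* and *MRPL36*. This gave 47 genes, of which 31 were protein coding, out of 16347 genes with that mean in the whole table. The stretch held 179 listed genes in all, and 91 of these were at 0 in every library. The stretch itself was proposed with results of these data known, so the counts and medians over its genes are a description of these libraries and carry no test of their own.

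The libraries came from H526, an established human small cell lung cancer cell line. The 3 parental libraries (numbered 1 to 3) were from H526 cells kept in growth medium. The 3 resistant libraries (numbered 7 to 9) were from H526 cells grown in onvansertib, an inhibitor of the mitotic kinase PLK1, raised from 10 to 75 nM over about a year. RNA was harvested at 3 separate times from each. The resistant cells are 1 line from 1 selection, so p-values measure the spread between harvests and not between independently selected lines. In bulk RNA, fewer cells that express a gene and less RNA per cell cannot be told apart.

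Telomerase adds telomere repeats to chromosome ends. *TERT* is its catalytic subunit, *TERC* its RNA template, and *DKC1*, *NHP2*, *NOP10* and *GAR1* form the core of the particle that holds the RNA. *TERT* is silent in most adult tissues and active in most cancers, and its level is low even where it is active. The short arm of chromosome 5 is often gained in lung cancers. Besides *TERT*, its terminal band encodes *BRD9*, a bromodomain protein of the ncBAF chromatin remodelling complex, *TRIP13*, an ATPase that takes apart mitotic checkpoint complexes, the homeobox factors *IRX1* and *IRX2*, and the RNA methyltransferase *NSUN2*.

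The value of 1 read was estimated from the lowest values and gave a depth, in units of 1e6 reads, of 25.8 to 28.6 in the parental and 22.4 to 23.3 in the resistant libraries. A level of 3 reads, taken as the detection limit for a 0, was a normalized value of 2.66 to 2.93 in parental and 3.11 to 3.22 in resistant libraries, and covers counting error only. No terminal 5p15 gene was at or under that limit in a whole group, and 27 of the 47 had all 6 values at 100 or more. The subtype factor *POU2F3* was at 25809 and 27273 in parental and resistant cells, and the epithelial genes *EPCAM*, *KRT8*, *KRT18* and *CDH1* lay between 5605 and 18031 on average in either group. *EPCAM* and *KRT8* were lower in resistant cells, with log2 fold changes of -0.23 and -0.22 (limma, adjusted p = 0.0441 and 0.0316). *KRT18* (-0.16) and *CDH1* (0.03) did not pass. The neuroendocrine genes *INSM1*, *CHGA* and *SYP* were lower in resistant cells, with log2 fold changes of -2.28, -4.22 and -2.15. The summed level of the 3 leukocyte markers was at most 2.42 in any library, and *CD3E* was at 0. The 3 fibroblast markers summed to 128 to 178 in parental and 369 to 587 in resistant libraries, with *COL1A1* and *COL1A2* higher and *LUM* at 6.27 and 4.74 on average, too low to be tested. The 3 endothelial markers summed to 244 to 339 and 452 to 491, nearly all of it *VWF*, with *CDH5* at 0 and *PECAM1* at 0 in all parental libraries. The part of these markers in the results below was not tested.

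Most of the terminal 5p15 genes were lower in resistant cells, and *TERT* was not among them. Of the 47 genes, 30 were lower and 2 were higher at an adjusted p under 0.05 (limma on log2(value + 1), Benjamini-Hochberg adjustment over all 16347 genes), and 15 did not pass the test. Over all genes tested, 37.7% passed, 19.8% lower and 17.8% higher. The median log2 fold change of the 47 genes was -0.57, with quartiles of -0.84 and -0.23, and 39 lay below 0. The median over all genes tested was -0.00. All log2 fold changes are resistant minus parental, on the log2(value + 1) scale, on which the change of a weakly expressed gene comes out too small.

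All 3 resistant libraries lay below all 3 parental libraries in 32 of the 47 genes, against 25.9% of all genes tested. They lay apart in the other direction in 2 genes, against 24.0% of all genes. Measured from the mean of the parental libraries, the median of the 47 genes was -0.55, -0.60 and -0.55 in resistant libraries 7, 8 and 9. In parental libraries 1, 2 and 3 it was 0.00, -0.06 and 0.04. All 3 harvests of resistant cells therefore sat at nearly the same place, well below the parental harvests. Leaving out single libraries kept the number of lower genes between 23 and 29, with 23 each without parental library 3 or resistant library 8. Over all genes tested, 15.5% to 17.9% were then lower.

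**Figure D1:**
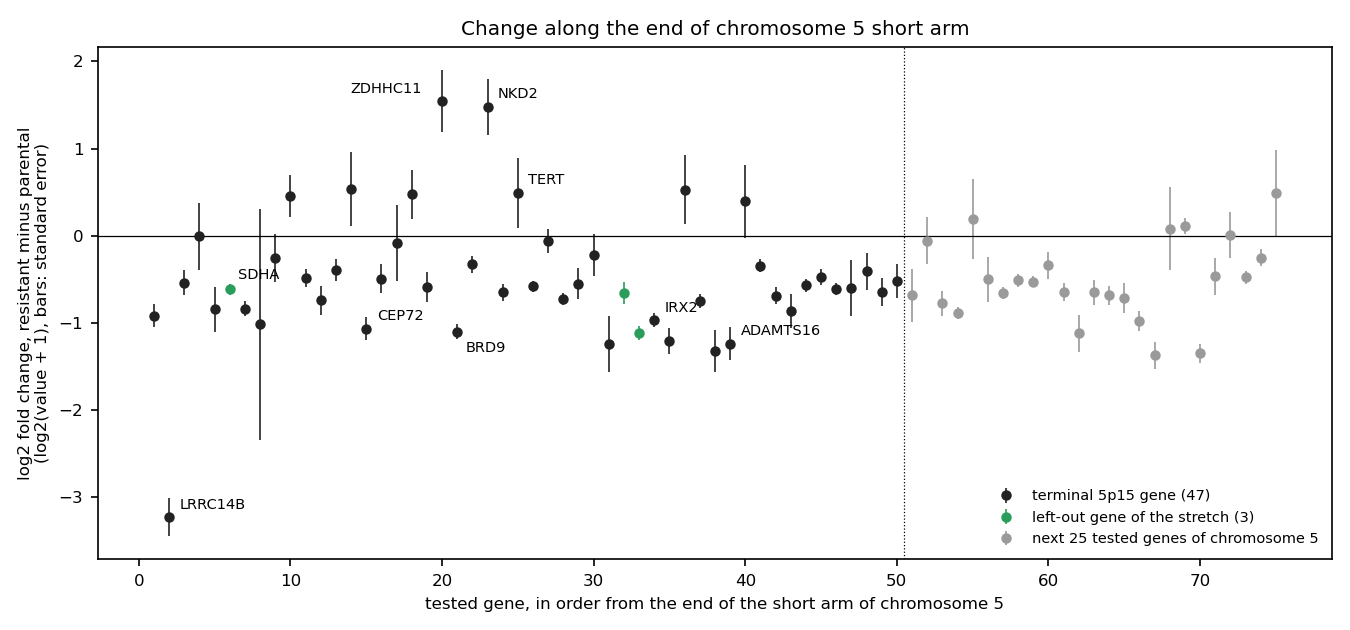
Log2 fold change (resistant minus parental, on log2(value + 1)) of the first 75 tested genes of chromosome 5, in order from the end of the short arm, with bars for the standard error (3 libraries per group). Black points are the 47 terminal 5p15 genes, green points *SDHA*, *MRPL36* and *NDUFS6*, and grey points the next 25 genes. Most points lie between 0 and -1.5 on both sides of the dotted line, with *LRRC14B* lowest at -3.23 and *ZDHHC11* and *NKD2* highest at 1.55 and 1.48.

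Nearly all of the well expressed genes were lower. Of the 21 genes with a mean of 300 or more, a limit set with the values known, 19 were lower, 1 was higher and 1 did not pass, with a median log2 fold change of -0.65. Over all genes tested with that mean, 25.9% were lower and the median was -0.05. Of the 10 genes with a mean under 50, 2 were lower, 1 was higher and 7 did not pass. Over all genes tested, at any mean, 19.8% were lower and 17.8% higher, and no share was computed for those with a mean under 50. The median SD between libraries of a group was 0.37 on the log2 scale for these 10 genes. It was 0.12 for the 21 genes with a mean of 300 or more. By gene type, 24 of the 31 protein-coding genes were lower and 2 higher, with a median of -0.61, against 22.3% lower, 18.2% higher and a median of -0.02 over all protein-coding genes tested. Of the 16 other genes, 6 were lower and none was higher by limma, beside 19.8% and 17.8% of all genes tested. Their median was -0.37, and 8 of the 16 were apart and lower, beside 25.9% of all genes. No share was computed for all tested genes that encode no protein.

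*TERT* (ENSG00000164362, chromosome 5, 1253147 to 1295068, minus strand) had normalized values of 58.2, 54.3 and 31.7 in the parental libraries and of 56.6, 124 and 40.5 in the resistant libraries. The groups overlapped, and only resistant library 8 lay above the parental range. The means were 48.1 ± 14.3 and 73.8 ± 44.4 (SD, n = 3 each). The log2 fold change was 0.49 with a standard error of 0.40 and a 95% interval of -0.40 to 1.39, and it did not pass the test (limma, Benjamini-Hochberg adjusted p = 0.367). The exact two-sided permutation test gave p = 0.50, and with 3 libraries against 3 it cannot go below 0.10. Without resistant library 8 the log2 fold change was 0.04. The interval holds no change as well as a rise of up to 1.39. Whether *TERT* differed from the other genes of the stretch was not tested.

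Per kilobase of the longest transcript, *TERT* was at 9.09 in parental and 13.9 in resistant cells, rank 43 and rank 39 of the 47 genes. *CLPTM1L*, the next tested gene towards the centromere, was the highest of the 47 by the same measure, at 1204 and 806. *CLPTM1L* (1317752 to 1345099, minus strand) encodes a membrane protein, and its locus with *TERT* is known for inherited cancer risk. Its normalized values were 4318, 4154 and 4312 in parental and 2900, 2741 and 2921 in resistant libraries, far apart. By limma its log2 fold change was -0.58, with 0.06 as the standard error (adjusted p = 6.17e-05). The next tested gene on the other side of *TERT*, *SLC12A7*, encodes a potassium chloride cotransporter. It had values of 1145, 1024 and 1178 against 641, 734 and 761, a log2 fold change of -0.65 (adjusted p = 0.000578). The tested genes next to *TERT* on either side were thus lower in every resistant library.

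**Figure D2:**
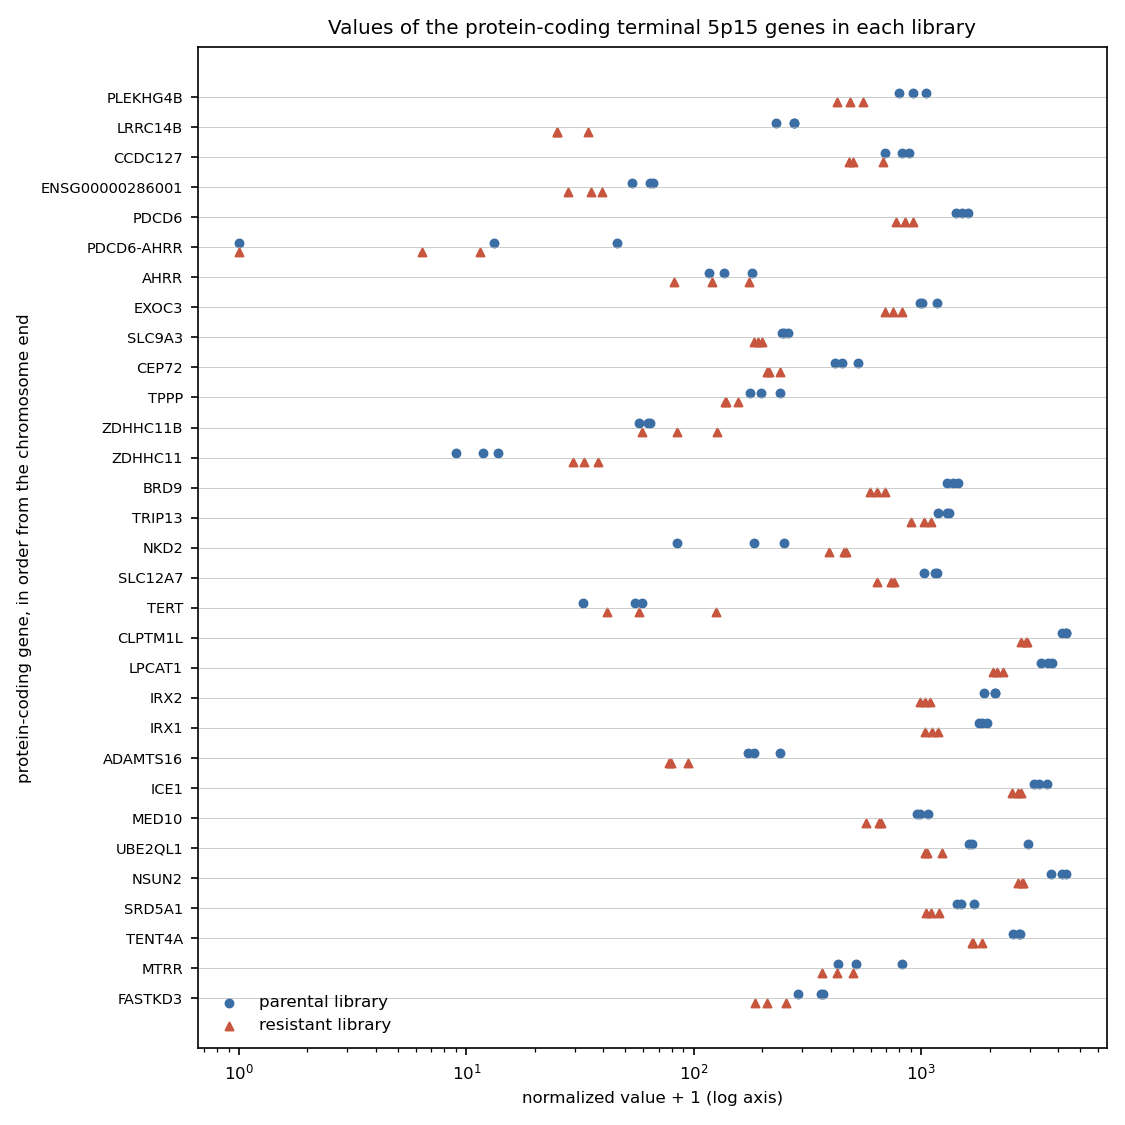
Normalized value + 1 (log axis) of the 31 protein-coding terminal 5p15 genes, in order from the chromosome end, with 1 circle per parental library and 1 triangle per resistant library (3 each). The triangles lie left of all circles in 24 genes and right of all circles in *ZDHHC11* and *NKD2*, and they mix with the circles in 5 genes, *TERT* among them.

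Other genes of telomerase and telomeres lie on many chromosomes. Of a list of 24, 23 were tested, 7 were lower and 2 were higher, beside 19.8% and 17.8% of all genes, and the median log2 fold change was -0.07. *TERC*, the RNA template, had a mean of only 1.93 and was not tested. The lower genes included *NHP2*, at 2833 ± 99.9 and 1817 ± 123 (SD, n = 3 each; log2 fold change -0.64), and *DKC1*, at -0.25, a call lost by limma without the trend (adjusted p = 0.0592). *TEN1*, a subunit of the CST complex that binds single-stranded telomere ends, was lower at -0.89. *RUVBL2*, *ACD*, *TERF1* and *WRAP53* were lower as well, between -0.37 and -0.25. The highest was *TEP1*, a telomerase-associated protein that is also part of vault particles, at 233 ± 46.9 and 871 ± 86.6 (SD, n = 3 each), a log2 fold change of 1.91. *TERF2*, a shelterin subunit, was at 0.34. The call of *TERF1* was lost without parental library 1 or 3 or any resistant library. That of *WRAP53* was lost without parental library 1 or 3 or resistant library 7 or 8, and that of *TERF2* without resistant library 9. The adjusted p-values by limma were then between 0.0513 and 0.128. The calls of *TERF1* and *WRAP53* were also lost with upper-quartile scaling, quantile normalization or limma without the trend (adjusted p between 0.0519 and 0.101).

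*BRD9* and *TRIP13* start back to back. *BRD9* (850291 to 892801, minus strand) had values of 1374, 1302 and 1451 in parental and 691, 640 and 596 in resistant libraries. The resistant libraries lay close together, and their mean was 46.7% of the parental mean. The log2 fold change was -1.10 (standard error 0.09; limma, Benjamini-Hochberg adjusted p = 1.2e-05). *TRIP13* (892884 to 919357, plus strand) had values of 1320, 1181 and 1299 against 1105, 903 and 1029. These groups also lay apart, but by less. Its log2 fold change was -0.33 (standard error 0.09, adjusted p = 0.0202), and it did not pass without parental library 1 (adjusted p = 0.0598), parental library 3 (0.0705) or resistant library 8 (0.0771), nor by limma without the trend (0.0611). On the log2 scale, *BRD9* stood above *TRIP13* by 0.06 to 0.16 in the parental libraries and below it by 0.50 to 0.79 in the resistant libraries. That difference of the pair changed by -0.77, and the exact two-sided permutation test gave p = 0.10, the smallest that 3 against 3 can give.

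The 82 bases between these 2 starts and the 135 bases between *NSUN2* and *SRD5A1* are shown because each lies between a pair of lower genes. The 97 bases between *CLPTM1L* and the lncRNA ENSG00000286388 are shown because *CLPTM1L* was lower and the lncRNA did not pass. They are the plus strand of GRCh38.p14 from RefSeq, at chr5:892802-892883, chr5:6633292-6633426 and chr5:1345100-1345196. Capitals mark a motif. The motifs searched were the GC box GGGCGG (on the other strand, read as CCGCCC), the CCAAT box (there read as ATTGG), the E box CACGTG (the same on both strands) and the TATA box, spelled TATAAA (there read as TTTATA).
BRD9 and TRIP13: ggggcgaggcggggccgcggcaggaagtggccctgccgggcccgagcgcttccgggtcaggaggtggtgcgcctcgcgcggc
NSUN2 and SRD5A1: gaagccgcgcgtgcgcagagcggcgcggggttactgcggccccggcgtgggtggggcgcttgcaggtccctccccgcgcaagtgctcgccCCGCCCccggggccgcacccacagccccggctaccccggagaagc
CLPTM1L and ENSG00000286388: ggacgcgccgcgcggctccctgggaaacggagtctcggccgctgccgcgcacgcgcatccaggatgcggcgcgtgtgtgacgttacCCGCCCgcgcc

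These regions were rich in G and C, at 81.7%, 79.3% and 76.3%, and held 12, 19 and 19 CG dinucleotides. A GC box was in the second and the last, and none of the other motifs was in any of the 3. Among 35116 RefSeq promoters, windows of the same lengths held a GC box in 28.2%, 35.5% and 30.8%. Of the regions read but not shown, that of *PP7080* and *SLC9A3-AS1* held 3 GC boxes. That of *ZDHHC11B* and ENSG00000288930 held 6 GC boxes and 1 CCAAT box, and that of *CCDC127* and ENSG00000286001 held no motif. Windows of their lengths held a GC box in 35.7%, 30.5% and 36.3%, and a CCAAT box in 17.4% for *ZDHHC11B*. A match is a description of the letters and not of a bound site.

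In all, 11 pairs of tested genes of the stretch start within 1 kb of each other on opposite strands, counting pairs with the left-out genes. In 7 of them both genes were lower, beside 33 lower of the 50 tested genes of the stretch and 19.8% of all genes tested. No such share was computed for pairs elsewhere. The 7 include *CCDC127* both with *SDHA* and with ENSG00000286001, which shares 49.6% of the 50-base stretches of its longest transcript with *SDHA*. *NSUN2* and *SRD5A1* moved by similar amounts, -0.57 and -0.47, and the difference within the pair changed by -0.10 (exact permutation p = 0.60). *IRX2* and *IRX2-DT*, which start 453 bases apart, were at -0.97 and -1.21 (exact permutation p = 0.40 for the difference). *ADAMTS16-DT* and *ADAMTS16* were at -1.32 and -1.24 (exact permutation p = 0.50). In the other 4 pairs 1 gene was lower and its partner did not pass. *CLPTM1L* was lower while ENSG00000286388 was at 203 ± 5.24 and 196 ± 14.9 (SD, n = 3 each), and the difference within the pair changed by -0.52 (exact permutation p = 0.10). *EXOC3* was lower at -0.48 while *EXOC3-AS1*, whose start lies 14 bases away, was at 0.46 and did not pass. *PP7080* was lower at -0.74 with *SLC9A3-AS1* at 0.54, and the lncRNA ENSG00000288930 was lower at -0.58 with *ZDHHC11B* at 0.48. The permutation p-values of the 11 pairs are raw, and with the smallest possible value of 0.10 none passed.

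**Figure D3:**
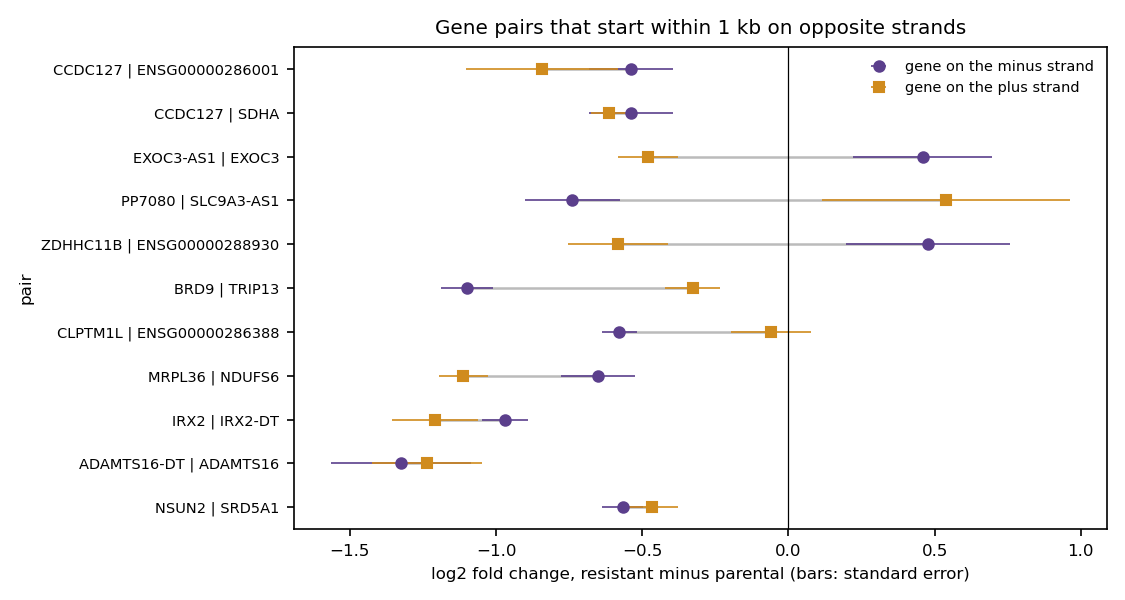
Log2 fold changes (resistant minus parental) of the 11 pairs of tested genes that start within 1 kb on opposite strands, with a circle for the gene on the minus strand, a square for the gene on the plus strand and bars for the standard error. Both symbols lie left of 0 in 8 pairs, and in 3 pairs they lie on opposite sides.

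The largest change was at the very end of the arm. *LRRC14B* (191495 to 196334, plus strand), which encodes a leucine-rich repeat protein, had values of 274, 230 and 276 in parental and 24.0, 23.9 and 33.4 in resistant libraries. The resistant mean was 10.4% of the parental mean, and no other of the 47 genes fell as far. The log2 fold change was -3.23 (standard error 0.21; limma, Benjamini-Hochberg adjusted p = 3.86e-06). Its neighbours fell by less. *PLEKHG4B* was at 924 ± 127 and 489 ± 64.8 (SD, n = 3 each), and *CCDC127* was at 798 ± 98.9 and 553 ± 109, log2 fold changes of -0.92 and -0.54. The call of *CCDC127* was lost without parental library 3 (adjusted p = 0.0639), resistant library 7 (0.0562) or resistant library 8 (0.0595), and by limma without the trend (0.0606).

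*NKD2*, which encodes an inhibitor of Wnt signalling that binds Dishevelled, rose within the same stretch. *NKD2* (1008802 to 1038943, plus strand) had values of 83.0, 249 and 183 in parental and 392, 457 and 467 in resistant libraries. The groups lay apart although the parental libraries spread over a 3.0-fold range. The log2 fold change was 1.48 (standard error 0.32; limma, adjusted p = 0.0049), and it stayed between 1.03 and 1.82 with single libraries left out. The lncRNA ENSG00000272347 (1005039 to 1006623, plus strand), just upstream of *NKD2* and named after its values were seen, was at 0.00, 0.97 and 1.96 in parental and 17.8, 13.5 and 17.2 in resistant libraries. It was below the mean of 10 and not tested, and all its parental values were under the limit of 3 reads.

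*ZDHHC11*, a palmitoyltransferase gene (795605 to 858973, minus strand), had low values of 7.98, 10.9 and 12.8 in parental and 36.8, 28.5 and 31.9 in resistant libraries, a log2 fold change of 1.55 (adjusted p = 0.00642). Its exons share 222 bases with those of *BRD9* on the same strand, and 20.2% of the 50-base stretches of its longest transcript also occur in its paralog *ZDHHC11B*, so its value is uncertain. *ZDHHC11B* was at 60.6 ± 3.43 and 88.9 ± 33.9 (SD, n = 3 each) and did not pass.

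The 250 bases upstream of *LRRC14B* and of *NKD2* are shown because they belong to the gene that fell furthest and to the more abundant of the 2 genes that rose. They are read on the plus strand, in which both genes are transcribed, at chr5:191245-191494 and chr5:1008552-1008801 of GRCh38.p14 from RefSeq, with the same motifs in capitals.
LRRC14B: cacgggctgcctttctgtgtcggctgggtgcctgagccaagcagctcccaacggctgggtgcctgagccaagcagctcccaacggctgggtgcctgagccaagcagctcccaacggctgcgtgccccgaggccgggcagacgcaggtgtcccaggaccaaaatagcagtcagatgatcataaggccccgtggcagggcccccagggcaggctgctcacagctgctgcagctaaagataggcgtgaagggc
NKD2: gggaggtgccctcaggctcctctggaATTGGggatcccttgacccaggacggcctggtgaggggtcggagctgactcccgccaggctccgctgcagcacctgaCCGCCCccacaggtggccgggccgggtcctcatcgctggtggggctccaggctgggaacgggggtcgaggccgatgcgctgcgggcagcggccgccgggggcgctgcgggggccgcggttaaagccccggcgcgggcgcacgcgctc

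The *LRRC14B* sequence held 65.6% G and C, 11 CG dinucleotides and none of the motifs. The *NKD2* sequence held 75.6% G and C, 26 CG dinucleotides, 1 GC box and 1 CCAAT box. Windows of 250 bases held a GC box in 42.6% and a CCAAT box in 32.0% of the 35116 promoters.

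Of 6 genes of chromatin and transcription, 5 were lower and *AHRR* did not pass, beside 19.8% of all genes and 30 of the 47 lower. *IRX2* (2745845 to 2751677, minus strand) had values of 2111, 1888 and 2108 in parental and 988, 1091 and 1038 in resistant libraries, a log2 fold change of -0.97 (limma, Benjamini-Hochberg adjusted p = 1.24e-05). *IRX1* (3595832 to 3601403, plus strand) had values of 1792, 1845 and 1953 against 1043, 1181 and 1114, a log2 fold change of -0.74 (adjusted p = 6.01e-05). The resistant means of these homeobox genes were 51.0% and 59.7% of the parental means. *IRX2-DT*, the divergent transcript beside *IRX2*, was at 430 ± 67.3 and 184 ± 14.5 (SD, n = 3 each). *MED10*, a subunit of Mediator, was at 1007 ± 60.0 and 627 ± 50.5, a log2 fold change of -0.68. *ICE1*, of the little elongation complex that serves small nuclear RNA genes, changed less, from 3341 ± 228 to 2634 ± 113, a log2 fold change of -0.34. *AHRR*, the repressor of the aryl hydrocarbon receptor, was at 135, 116 and 180 against 119, 174 and 80.5. These groups overlapped. The longest transcript of *AHRR* shares 98.1% of its 50-base stretches with the read-through gene *PDCD6-AHRR*, which was at 0 in parental library 3 and resistant library 8, so the reads of the pair cannot be assigned with certainty.

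The other ncBAF genes were compared with *BRD9*. Of 13 genes on the list, all tested, 8 were lower and 2 higher, beside 19.8% and 17.8% of all genes, with a median log2 fold change of -0.35. *BRD9* was the lowest. *BCL7A* followed at -0.87, *BCL7B* at -0.78, *BCL7C* at -0.60, *SMARCC1* at -0.45, *SMARCD1* at -0.44, *ACTL6A* at -0.35 and the ATPase *SMARCA4* at -0.28. *SMARCA2*, the alternative ATPase, and *BICRA*, which like *BRD9* marks the ncBAF form, were higher at 0.29 and 0.30. Most of these proteins also belong to other BAF forms.

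**Figure D4:**
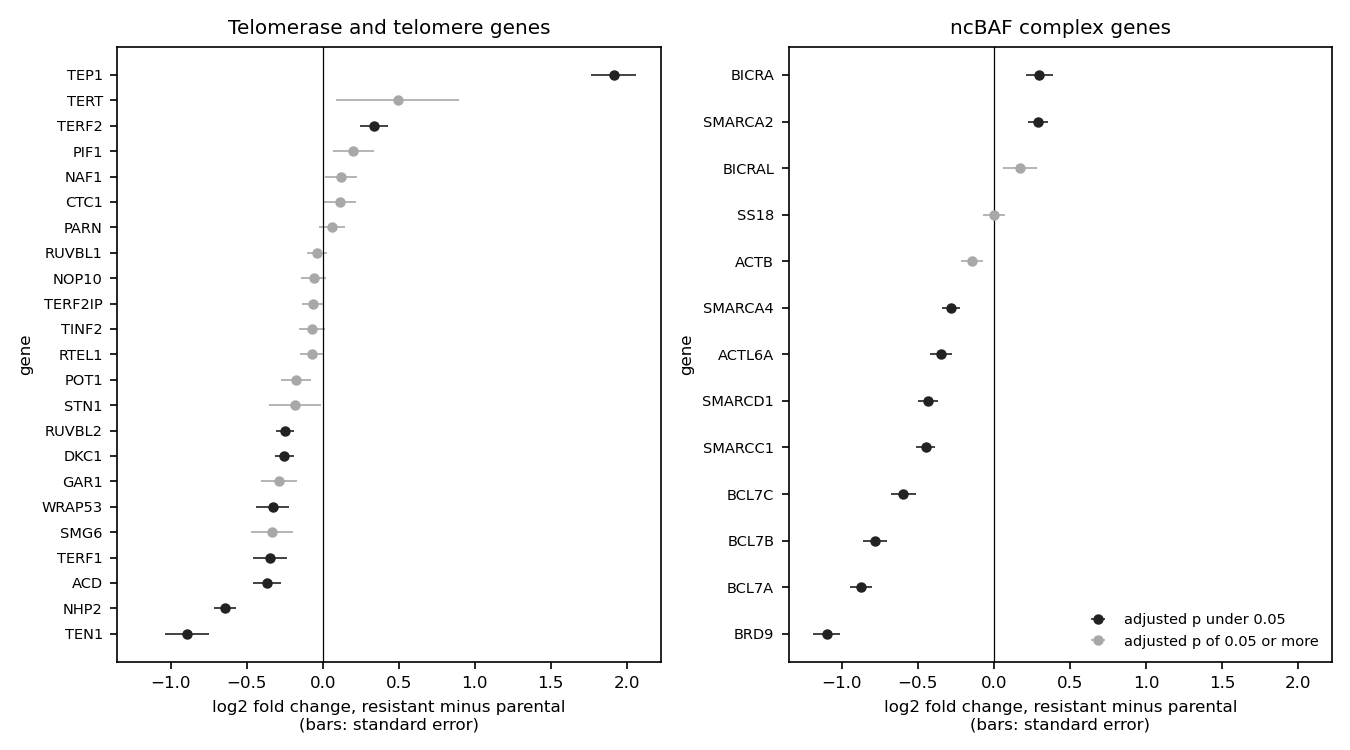
Log2 fold changes (resistant minus parental) of the 23 tested genes of telomerase and telomeres and of the 13 ncBAF genes, sorted, with bars for the standard error and black points for an adjusted p under 0.05 by limma. *TEP1* is highest at 1.91 and *TEN1* lowest at -0.89 in the telomere list, where *TERT* is grey at 0.49, and *BRD9* is lowest at -1.10 in the ncBAF list.

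The genes of mitosis and the centrosome, *CEP72*, *TPPP* and *TRIP13*, were all lower, as were 19.8% of all genes and 30 of the 47 genes of the stretch, but the calls of *TPPP* and *TRIP13* did not hold in every alternative. *CEP72*, a protein of the centrosome, had values of 449, 416 and 525 in parental and 239, 208 and 214 in resistant libraries, a resistant mean of 47.5% of the parental mean (log2 fold change -1.07; limma, adjusted p = 0.000166). *TPPP*, which promotes tubulin polymerization, was at 204 ± 32.3 and 144 ± 10.9 (SD, n = 3 each; log2 fold change -0.49, adjusted p = 0.0392). Its call was lost under 7 alternatives, among them leaving out parental library 2 or 3 or any resistant library. *CEP72* and *TPPP* share 404 exonic bases on opposite strands, and *TRIP13* is described above. Among 8 tested partners of *TRIP13* and checkpoint genes, *TRIP13* itself and *MAD2L2* (-0.31) were lower, a share near the 19.8% of all genes, and none was higher by limma. *MAD2L1*, the checkpoint protein that *TRIP13* remodels, was at 3144 and 3129.5 on average.

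The RNA-modifying genes *NSUN2*, *TENT4A* and *FASTKD3* were all lower, beside the same 19.8% of all genes and 30 of the 47. *NSUN2*, which places 5-methylcytosine in tRNA, had values of 4319, 3725 and 4166 in parental and 2802, 2655 and 2766 in resistant libraries, a log2 fold change of -0.57 (limma, adjusted p = 0.000198). *TENT4A*, a noncanonical poly(A) polymerase, had values of 2690, 2532 and 2706 against 1674, 1844 and 1687, a log2 fold change of -0.61 (adjusted p = 0.000118). *FASTKD3*, of a family that acts on mitochondrial RNA, was at 338 ± 45.7 and 216 ± 34.3 (SD, n = 3 each; -0.64). Of the 8 NSUN-family and tRNA methyltransferase genes tested, *NSUN5* (-0.60) and *NSUN2* itself were lower and none was higher by limma, again a share near the 19.8% of all genes.

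Of the metabolic genes, *LPCAT1* and *SRD5A1* were lower and *MTRR* did not pass. *LPCAT1*, which remakes phosphatidylcholine from its lyso form, had values of 3616, 3773 and 3354 in parental and 2149, 2059 and 2298 in resistant libraries, a log2 fold change of -0.72 (limma, adjusted p = 4.63e-05). *SRD5A1*, a steroid reductase, was at 1545 ± 148 and 1115 ± 71.6 (SD, n = 3 each; -0.47). *MTRR*, which reactivates methionine synthase, had values of 824, 428 and 515 against 503, 364 and 425. The groups overlapped, with parental library 1 high. Its log2 fold change was -0.41 (limma, adjusted p = 0.166). Without parental library 1 it was -0.14 (adjusted p = 0.542), and without parental library 2 it passed at -0.61 (adjusted p = 0.0447). In the methionine and folate cycle, 12 genes were tested, 1 was lower and 5 were higher, beside 19.8% and 17.8% of all genes, with a median of 0.23. *SHMT2* was lower at -0.58, and *CBS*, *MTR*, *MMACHC*, *MTHFD1* and *MAT2B* were higher by 0.36 to 0.62. *MTR* encodes the methionine synthase that *MTRR* serves, and it was at 488 ± 80.2 and 698 ± 55.3 (SD, n = 3 each).

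Of 7 genes of signalling, trafficking and palmitoylation, 4 were lower and 2 higher, beside 19.8% and 17.8% of all genes. The higher genes were *NKD2* and *ZDHHC11*, described above, and *ZDHHC11B* did not pass. *PDCD6*, a calcium-binding adaptor, had values of 1598, 1423 and 1508 in parental and 923, 775 and 845 in resistant libraries (log2 fold change -0.83, limma adjusted p = 7.3e-05). *EXOC3*, an exocyst subunit, was at 1055 ± 102 and 756 ± 67.0 (SD, n = 3 each; -0.48). *UBE2QL1*, an E2 ubiquitin-conjugating enzyme-like protein, had values of 2962, 1622 and 1679 against 1042, 1059 and 1229. Parental library 1 was far above the other parental libraries, and the log2 fold change of -0.86 (adjusted p = 0.00638) was -0.58 without it. Outside these 7 genes, *SLC9A3*, a sodium proton exchanger, was at 250 ± 7.98 and 191 ± 8.19 (SD, n = 3 each, log2 fold change -0.39, adjusted p = 0.0372). Its call was lost whichever library was left out, and it shares 47.7% of its 50-base stretches with other genes, mostly *PP7080*. *ADAMTS16*, a secreted metalloprotease and also outside that group, had values of 183, 173 and 238 against 78.5, 76.8 and 93.6 (log2 fold change -1.24, adjusted p = 0.000625).

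Of the genes that encode no protein, the 5 with the highest means were *IRX2-DT*, *PP7080*, ENSG00000286388, ENSG00000291055 and *MIR4458HG*. *PP7080* was at 269 ± 41.8 and 160 ± 15.6 (SD, n = 3 each), but 97.5% of its 50-base stretches occur in *SLC9A3*. ENSG00000291055 was lower at -0.55 (limma, adjusted p = 0.0374), a call lost without parental library 2 or 3 or resistant library 7 or 8. *MIR4458HG* had values of 143, 191 and 202 against 102, 131 and 140, apart but not past the test (adjusted p = 0.062), and passed without parental library 1 (0.0301). The protein-coding read-through gene ENSG00000286001, which shares 85.3% of its stretches with *SDHA*, *PDCD6* and others, was at 60.2 ± 6.66 and 33.3 ± 5.89 (SD, n = 3 each; -0.84). It did not pass without parental library 2 or 3 or resistant library 8 or 9. With the 8 genes that share 40% or more of their stretches left out, a choice made after seeing the data, 25 of 39 were lower and 2 higher, with a median of -0.55.

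The genes just inside the limit on the mean were *PDCD6-AHRR* and ENSG00000260774, at 12.2 and 15.7, and those just outside were *LINC03067* and ENSG00000289088, at 9.92 and 9.74. At the position limit, *FASTKD3* and *MIR4458HG* were the last genes inside. *LINC02199* (-0.68) and *SEMA5A* (-0.06) were the first outside, and neither passed. The left-out genes *SDHA*, *MRPL36* and *NDUFS6* were all lower, at -0.61, -0.65 and -1.11, with adjusted p-values of 6.03e-05, 0.00252 and 8.03e-06 by limma. With them, 33 of 50 genes were lower and the median was -0.58.

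The lower values did not stop at 8.5 Mb. In consecutive groups of 25 tested genes along chromosome 5, the first (*PLEKHG4B* to *TERT*, starts at 0.1 to 1.3 Mb) had a median log2 fold change of -0.49, with 15 genes lower and 2 higher. The next (*CLPTM1L* to *MIR4458HG*, 1.3 to 8.5 Mb) had a median of -0.61, with 18 lower and 0 higher by limma. The following group, with starts from 8.8 to 31.6 Mb, had a median of -0.52, with 14 lower and 0 higher. It held *CCT5*, a chaperonin subunit, at 13568 ± 815 and 7339 ± 455 (SD, n = 3 each), and the ubiquitin ligase *MARCHF6*, at 6244 ± 262 and 3965 ± 253. The fourth group, from 32.1 to 36.9 Mb, was at -0.26 and the fifth at -0.07. Lower medians than in the second group were seen in 2 of the 29 groups, group 20 (-1.02) and group 25 (-0.70), both on the long arm. Over the 662 tested genes of chromosome 5 beyond 8.5 Mb, 147 (22.2%) were lower and 88 (13.3%) higher, with a median of -0.04. Over all genes tested, 19.8% were lower and 17.8% higher.

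**Figure D5:**
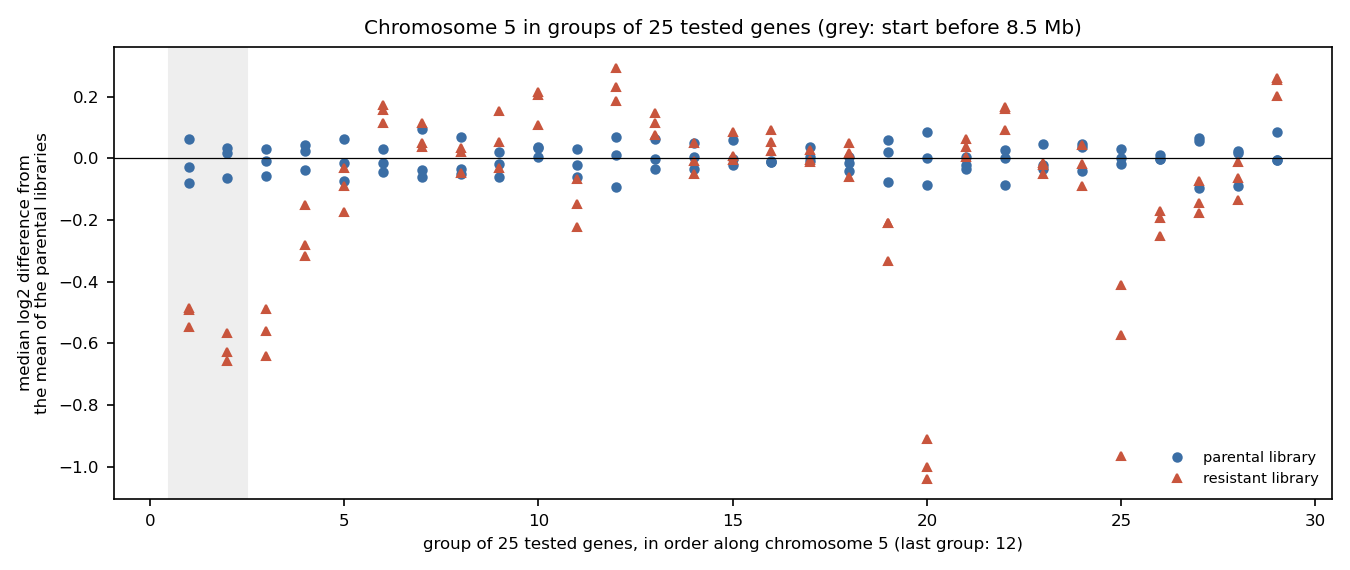
Median log2 difference from the mean of the parental libraries in 29 consecutive groups of 25 tested genes along chromosome 5 (the last group has 12), with 1 symbol per library (3 parental, 3 resistant). In the grey area, which holds all tested genes that start before 8.5 Mb, the resistant symbols lie between -0.49 and -0.66, the parental symbols between -0.08 and 0.06, and the resistant libraries return towards 0 over groups 3 to 5.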

How the data were processed

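RNA of 3 parental and 3 onvansertib-resistant H526 libraries was sequenced with paired-end reads (NEBNext Ultra RNA kit). The authors trimmed reads with Trimmomatic 0.38 and aligned and quantified them with RSEM 1.3.1, with STAR among the tools in the submitters' processing notes, on GRCh38 with Gencode v43, and normalized gene counts with DESeq2 1.30.0. Whether counting used strand is not given in the sources used here. The authors deposited this normalized signal for each gene, 1 column a library, and not the counts. All 6 columns were used. Count models were therefore not run.

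Of 62757 rows, 47 second copies of pseudoautosomal genes were left out, and 62639 of the other 62710 were matched to Gencode v44 (GRCh38) by identifier without version. A gene entered the test if its mean was 10 or more. Values were taken as log2(value + 1) and compared by condition alone in limma 3.58.1 under R 4.3.3 (lmFit, then eBayes with trend), and p-values were adjusted by Benjamini-Hochberg with a threshold of 0.05. The limma step was tested on simulated data. Single values and pair differences got an exact two-sided permutation test. Depth was estimated from the value of 1 read, the step of the lowest values. Other steps used Python 3.11.15, numpy 2.4.6, pandas 2.3.3, scipy 1.17.1 and matplotlib 3.10.9.

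The members and the gene lists were chosen with earlier results of these data known. Genes named were every protein-coding member, the 5 other members with the highest means, the left-out genes, the genes nearest the limits, members of divergent pairs, telomere-list genes that passed, and, from each other list, at most 3 genes taken by p. *INSM1* and the other markers, the further ncBAF, methionine and folate genes, and other genes given as examples, lie outside this rule and were named after their values were seen. Shared 50-base stretches were counted between Gencode transcripts of different genes. Promoter sequences came from RefSeq (GRCh38.p14), whose table held 29 of the 47 members. Results were recomputed with a pseudocount of 0.1 or 10, without the filter or with a mean of 50, after upper-quartile scaling or quantile normalization, with no trend in limma, without single libraries, and with other choices of members.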

Additional observations from a re-analysis of the deposited data

How the results depend on the processing

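No paired analysis was possible because the groups share no replicate number (1 to 3 in parental, 7 to 9 in resistant cells) and the labels do not say which harvests belong together. The number of lower genes was 26 of 47 with no filter, 27 with upper-quartile scaling, 31 with quantile normalization and 29 without the trend. Over all genes tested in the same settings, 10.7%, 16.8%, 18.9% and 16.0% were lower. With single libraries left out, 23 to 29 of the 47 were lower, beside 15.5% to 17.9% of all genes. The number of higher genes was 1 with a minimum mean of 50, since *ZDHHC11* was then not tested, and 2 to 3 with single libraries left out. The median log2 fold change stayed between -0.61 and -0.51 in all alternatives, the lowest with protein-coding genes alone and the highest with upper-quartile scaling, which moved the median of all genes to 0.05 and their calls to 2740 lower and 3459 higher, from 3244 and 2917. Over all genes, 4799 to 5623 passed with single libraries left out, against 6161. Of 51 named genes, 33 had the same direction and call in every alternative.

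Changes of sign were seen in genes that did not pass. ENSG00000260774 (-0.01) was at 0.0062 with a pseudocount of 10 and at 0.047 with upper-quartile scaling. With single libraries left out, it ranged from -0.24 to 0.19, *PDCD6-AHRR* from -2.55 to 0.21, *SEMA5A* from -0.36 to 0.22, *AHRR* from -0.53 to 0.025 and ENSG00000286388 from -0.10 to 0.0030. The values above 0 were those of ENSG00000260774 without parental library 1 or 3 or resistant library 7 or 8, *PDCD6-AHRR* without parental library 2 or resistant library 8, *SEMA5A* without parental library 2 or resistant library 9, *AHRR* without resistant library 9 and ENSG00000286388 without resistant library 8. The cause was not tested. *TERT*, with a mean of 60.9 over the 6 libraries, had a 95% interval from -0.40 to 1.39, and the part of depth in it was not tested.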

Other observations

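Below the mean of 10, ADCY2, an adenylyl cyclase gene of the same stretch (chromosome 5, 7396138 to 7830081, plus strand), named after its values were seen, was at 0.25, 0.54 and 0.00 in the parental libraries, all under the limit of 3 reads, and at 3.86, 5.63 and 11.5 in the resistant libraries. The groups did not overlap, and the gene was not tested. The lncRNA ENSG00000261434, which shares 557 exonic bases with *LRRC14B* on the same strand, was at 11.5, 12.3 and 0.00 in parental and 4.22, 0.00 and 0.00 in resistant libraries.

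The genes of the stretch differed in how far their harvests spread. Among genes with a mean above 100, *NKD2* had the widest parental range, with a highest value 3.0 times the lowest, against 1.19 times in resistant cells. *MTRR* followed at 1.92 and 1.38, and *UBE2QL1* at 1.83 and 1.18, each with parental library 1 highest. The opposite order was seen in *AHRR*, at 1.55 in parental and 2.16 in resistant libraries, among others. At means under 100 it was also seen in *TERT*, at 1.84 and 3.06, and in *ZDHHC11B*, at 1.12 and 2.15. No test of these ranges was made.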
